A study of Mus musculus with 12 samples.

Results

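Histone deacetylases (HDACs) Hdac1 to Hdac10 were followed in resting B (RB) cells of mouse spleen after 4 h of stimulation. The members were the array probes whose gene name was one of these 10 symbols, which gave 14 of 61307 probes, with no use of their values. Hdac1 to Hdac6 had 1 probe each (6 genes), and Hdac7, Hdac8, Hdac9 and Hdac10 had 2 each (4 genes). All 14 probes were well above background on all 12 arrays, none (0) had a saturated or outlier spot, and all 14 were among the 31599 probes tested.

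The study asked how signals through Toll like receptor 2 (TLR-2) and the costimulatory molecule CD86 act together on RB cells. The cells came from BALB/c mice that the labels give as female and 6 weeks old, whereas the methods allow male or female mice, and were isolated by leaving out CD43-bearing splenocytes. There were 6 conditions with 2 arrays each, namely unstimulated cells, Pam2CSK4 (a lipopeptide ligand of TLR-2), anti-CD86 antibody, both together (TLR2.CD86), anti-CD40 antibody, and anti-CD40 with Pam2CSK4. Anti-CD40 engages CD40, through which T cells help B cells. The methods describe the anti-CD86 antibody as carrying biotin and as being cross-linked on the cells by streptavidin, and the labels of these arrays do not mention the streptavidin. All conditions shared the same strain, tissue and culture, and no genotype was named for any of them. A legend of the study calls the microarray replicates biological, but no label says that the arrays of a condition came from separate mice, so the p-values measure the spread between these arrays.

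HDACs remove acetyl groups from lysines of histones and of other proteins, and removal from histones is linked to compact, less transcribed chromatin. The class I enzymes HDAC1, HDAC2, HDAC3 and HDAC8 are mostly nuclear, and the first 3 of these work as catalytic subunits of corepressor complexes. The class IIa enzymes HDAC4, HDAC5, HDAC7 and HDAC9 have weak activity of their own, bind transcription factors of the MEF2 family, and leave the nucleus when kinases phosphorylate them and 14-3-3 proteins bind. The class IIb enzymes HDAC6 and HDAC10 act largely outside the nucleus, on tubulin in the case of HDAC6 and on acetylated polyamines in the case of HDAC10.

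The probes are 60 bases long, and the first 30 bases are printed for most probes of the genes on which the results turn, because the level given for a gene is that of 1 such stretch of its transcript. The design file, annotated to mm9, lists these probes as unmapped, so no coordinates are given. Capitals mark bases shared with a probe of another gene name. The capitals of the Hdac1 probe stand for its whole length, since 2 other probes, both named LOC100048437, carried exactly the same 60 bases. None (0) of the other 13 HDAC probes shared a stretch of 20 bases with any other probe. The following sequences read 5′ to 3′.
Hdac1: TAGGTGGAGGTTGATAGCCTAGCTTCCTTT
Hdac2: tcccatgagagatggtatagatgatgaatc
Hdac5: ccctttgggcttcatcattgtgattttgtt
Hdac6: ttgaataccctttgccaggtgcttatttaa
Hdac7 brighter probe: caacggtgccaaaccttcatctcccttcaa
Hdac7 dimmer probe: agaggaagaacccatgaacctctagggttt
Hdac9 brighter probe: cctggaaccagtaaaaagaaaagctggaca
Hdac9 dimmer probe: ttacaccctcagtctcctttggcaacaaaa
Hdac10 brighter probe: ataataacagtgattgccagtcgcttgaaa

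Each array had 61657 spots, of which 46.6% to 60.6% were well above background, and the number of arrays limits the precision. The arrays lay on 2 slides. Slide 1 held both unstimulated arrays, both arrays of anti-CD40 with Pam2CSK4 and replicate 1 of the other conditions, and slide 2 held replicate 2 of Pam2CSK4, anti-CD86, TLR2.CD86 and anti-CD40. B cell markers were well above background on every array for 8 of 8 genes, but so were 6 of 6 myeloid, 5 of 6 T cell and 3 of 4 NK cell markers. The summed linear signal of the 6 myeloid markers, in units of the 75th percentile of the array, was 140 to 141 in unstimulated cells, 114 to 117 with Pam2CSK4, 98.5 to 98.7 with anti-CD86 and 95.1 to 98.1 with TLR2.CD86. It was 83.7 to 93.8 with anti-CD40 and 103.6 to 104.8 with anti-CD40 and Pam2CSK4. This sum was thus highest in unstimulated cells, as Hdac1 was. Most of it was S100a8, with a mean log2 signal of 6.996 in unstimulated cells, beside 3.01 for Cd14. Not all 6 genes followed the sum. Cd14 was higher than in unstimulated cells by 0.37 with Pam2CSK4, and Lyz2 by 0.35 with TLR2.CD86. At an adjusted p under 0.05 (limma), 4 of 6 were lower and 0 higher with TLR2.CD86. The same counts held with anti-CD40 and Pam2CSK4. The NK cell sum was 10.3 to 10.4 in unstimulated cells and 6.74 to 9.24 in the others. The T cell sum was 21.4 to 21.7 in unstimulated cells, 21.8 to 21.9 with anti-CD40 and Pam2CSK4, and 15.6 to 21.6 in the others. The B cell sum was 345 to 375 in unstimulated cells, 449 to 504 with anti-CD40 and Pam2CSK4, and 321 to 432 in the others. None (0 of 4) of the liver markers was well above background on every array, yet their sum was 6.57 to 6.68 in unstimulated cells, 3.51 to 5.09 in 4 of the conditions and 0.26 to 0.40 with anti-CD40 and Pam2CSK4. The part of these markers in the HDAC results was not tested. In such bulk RNA, fewer cells of a type and less RNA per cell cannot be told apart.

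Across the 6 conditions, 3 HDAC genes changed, and each had its lowest levels in stimulated cells. These were Hdac5, Hdac2 and Hdac1, with an adjusted p (limma, Benjamini-Hochberg over all probes tested) of 0.00329, 0.0283 and 0.0370 in the one-way test. When each of the 12 arrays was left out in turn, the call of Hdac2 was lost without 5 of them (adjusted p = 0.0622 to 0.0961) and that of Hdac1 without 9 (0.0515 to 0.164). The calls were 3 of 14 probes, beside 20.1% of all probes tested, so the share of HDAC probes that changed was near that of the whole array. Against unstimulated cells, the HDAC probes called at an adjusted p under 0.05 were 2 of 14 with TLR2.CD86 (10.6% of all probes), 3 of 14 with anti-CD40 (16.7%) and 2 of 14 with anti-CD40 and Pam2CSK4 (18.2%). All of these calls were lower than in unstimulated cells, and they fell on Hdac1, Hdac2, Hdac5 and Hdac10 alone. They share the same 2 unstimulated arrays, and the share of lower probes among all probes called is not given here. With limma, 0 of 14 were called for Pam2CSK4 alone (0.136% of all probes) and 0 of 14 for anti-CD86 alone (2.14%), where 4 and 2 HDAC probes had an unadjusted p under 0.05 (15.7% and 23.2% of all probes). The median log2 difference of the 14 probes was -0.16 with Pam2CSK4, -0.08 with anti-CD86, -0.17 with TLR2.CD86, -0.22 with anti-CD40 and -0.15 with anti-CD40 and Pam2CSK4. Over all probes tested the medians were -0.07, -0.05, -0.03, -0.01 and 0.01 in the same order. These medians are not corrected for the slide. Except for anti-CD40 with Pam2CSK4, each stimulation had its replicate 2 on slide 2, where no unstimulated array lay. The median difference of slide 2 from slide 1 was -0.29 for the HDAC probes and -0.13 for all probes. The part of the slide in these medians was not tested.

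**Figure D1:**
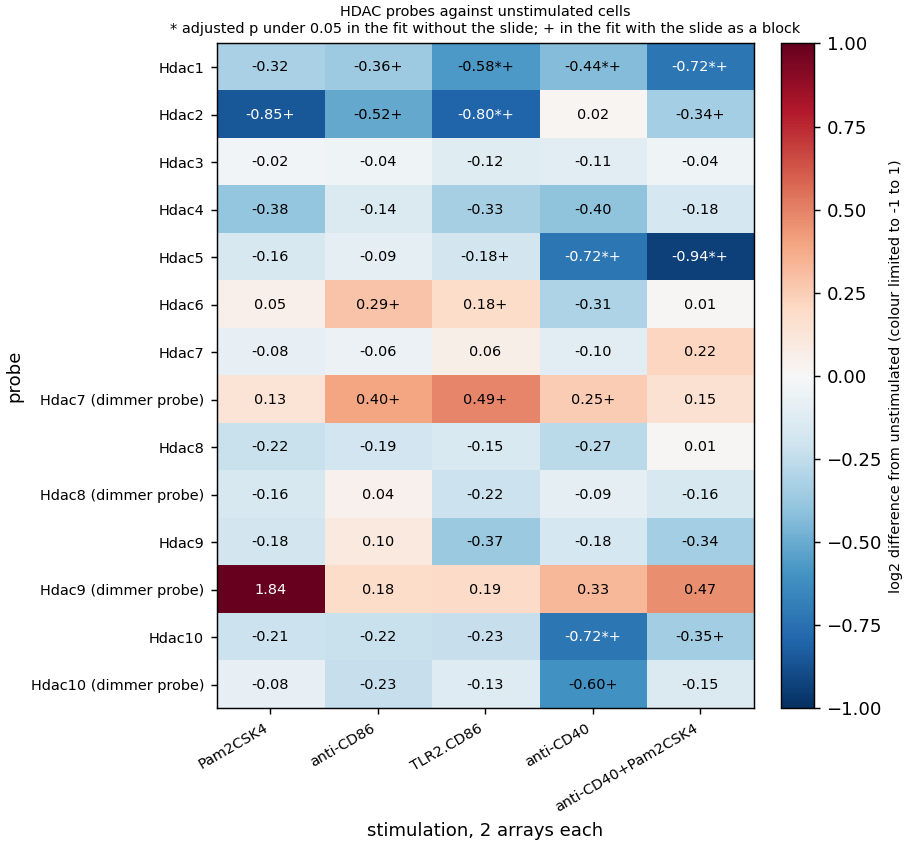
Log2 difference from unstimulated cells for each HDAC probe (rows) and stimulation (columns, 2 arrays each), with colour from -1 (blue) to 1 (red) and 1.84 shown at the limit. A star marks an adjusted p under 0.05 and a plus sign the same in the fit with the slide as a block, and the stars fall on Hdac1, Hdac2, Hdac5 and the brighter Hdac10 probe, all lower.

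The calls rested on how the arrays were scaled. In the values above, each array's 75th percentile was set to 0 on the log2 scale. That percentile was 8.48 on anti-CD40 replicate 2 and 8.47 to 8.61 on the other arrays of slide 2. The median signal was 51.2 on anti-CD40 replicate 2 and 17.3 to 33.5 on the other arrays, and the part of this array was not tested. Scaling to the median of the array instead moved the median difference of all probes to -0.26 with Pam2CSK4, -0.19 with anti-CD86, -0.32 with TLR2.CD86, -0.58 with anti-CD40 and -0.10 with anti-CD40 and Pam2CSK4. No HDAC probe was then called in any comparison, and of the 31599 probes tested 132 were called for TLR2.CD86 (0.418%), 349 for anti-CD40, 465 for anti-CD40 with Pam2CSK4 (1.47%) and 1018 in the one-way test (3.22%). The differences of Hdac1, Hdac2, Hdac5 and Hdac10 from unstimulated cells that had been called kept their sign. They were already negative and this scaling moved all differences from unstimulated cells down, so it could not have turned them. Without the filter on dim probes, 0 of 14 was called for TLR2.CD86, 1 of 14 for anti-CD40 and 2 of 14 for anti-CD40 with Pam2CSK4, beside 0.0425%, 1.74% and 4.02% of the 61207 probes then tested. With quantile normalization, 1 of 14 was called for TLR2.CD86, 3 of 14 for anti-CD40 and 2 of 14 for anti-CD40 with Pam2CSK4, beside 12.6%, 20.3% and 20.2% of all probes.

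Hdac5, a class IIa enzyme, showed the lowest p of the family and was lower wherever CD40 was engaged. Its log2 signal was 5.05 and 4.997 in unstimulated cells, 4.82 and 4.91 with Pam2CSK4, 4.85 and 5.02 with anti-CD86, 4.84 and 4.84 with TLR2.CD86, 4.30 and 4.31 with anti-CD40, and 4.08 and 4.10 with anti-CD40 and Pam2CSK4. The 4 arrays with anti-CD40 were the lowest of the 12, and the arrays with anti-CD86 overlapped those of unstimulated cells. Its mean of 5.03 ± 0.04 without stimulation compared with 4.09 ± 0.01 for anti-CD40 with Pam2CSK4 (SD, n = 2 arrays each), a log2 difference of -0.94 (SE 0.10, adjusted p = 0.00113), or 1.91-fold lower. With anti-CD40 alone the difference was -0.72 (SE 0.10, adjusted p = 0.00589), or 1.65-fold lower. Pam2CSK4, anti-CD86 and TLR2.CD86 gave differences of -0.16, -0.09 and -0.18 (adjusted p = 0.456, 0.641 and 0.272), although quantile normalization turned the last of these to 0.00 and that of anti-CD86 to 0.11. In the order of condition means, the levels of TLR2.CD86, Pam2CSK4, anti-CD86 and unstimulated cells lay within 4.84 to 5.03. The arrays of Pam2CSK4 and TLR2.CD86 were below the unstimulated ones, and TLR2.CD86 passed the threshold only when the slide was fitted as a block (-0.22, adjusted p = 0.0381). The step from anti-CD40 down to anti-CD40 with Pam2CSK4 was -0.22 (SE 0.10, adjusted p = 0.295), without overlap of the arrays and without passing the threshold. All 4 arrays compared for anti-CD40 with Pam2CSK4 lay on slide 1, so a fit within slide 1 repeats the same difference and is no separate check. The call for this condition held when any of the 4 arrays was left out (log2 difference -0.97 to -0.91). That for anti-CD40 was lost without unstimulated replicate 1 (-0.69, adjusted p = 0.0635) or replicate 2 (-0.75, adjusted p = 0.0547). Its one-way call held when any of the 12 arrays was left out (adjusted p = 0.00728 to 0.0283). Over the alternatives the adjusted p ran from 7.93e-05 to 0.421 for anti-CD40 with Pam2CSK4, the highest being with median scaling (-1.05), and from 0.000441 to 0.125 for anti-CD40.

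**Figure D2:**
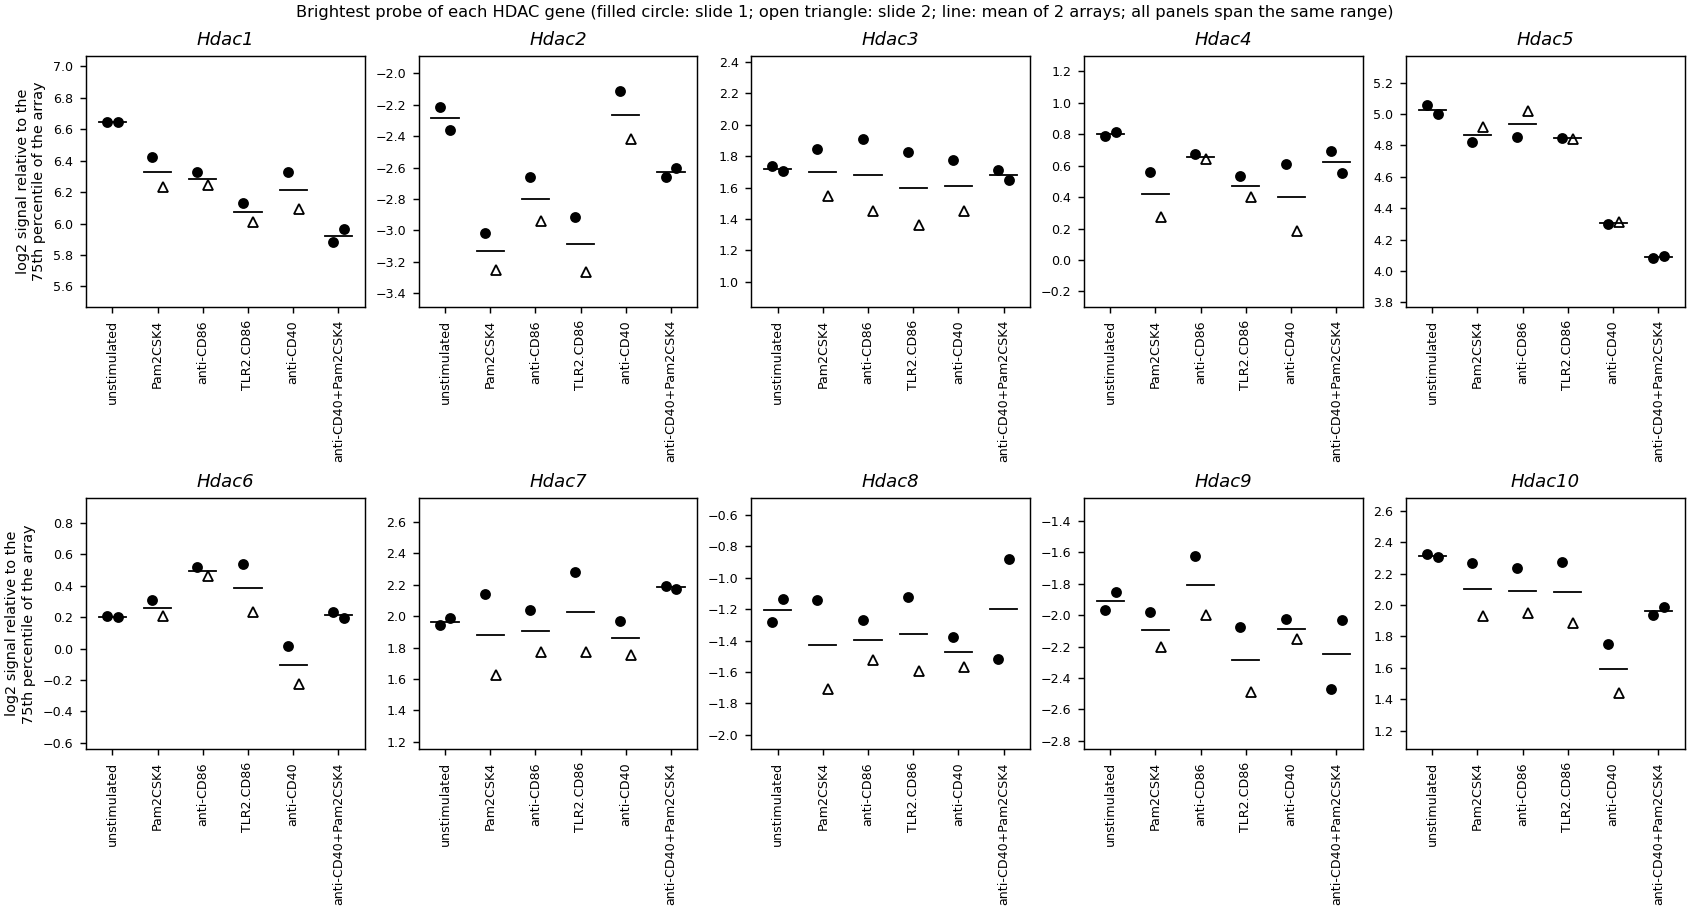
Log2 signal, with each array's 75th percentile at 0, for the brightest probe of each HDAC gene in the 6 conditions, with 1 point per array, filled circles for slide 1, open triangles for slide 2 and a line at the mean of 2 arrays. Hdac5 sits between 4.82 and 5.05 in the 4 conditions without anti-CD40 and between 4.08 and 4.31 with it, and Hdac1 is highest in unstimulated cells.

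Hdac1, a class I enzyme and a subunit of corepressor complexes, was lower after stimulation in every condition, of which 3 passed the threshold. Its log2 signal was 6.65 and 6.65 in unstimulated cells, 6.42 and 6.23 with Pam2CSK4, 6.33 and 6.25 with anti-CD86, 6.13 and 6.01 with TLR2.CD86, 6.33 and 6.09 with anti-CD40, and 5.88 and 5.96 with anti-CD40 and Pam2CSK4. Both unstimulated arrays lay above all 10 stimulated arrays. Against unstimulated cells the log2 difference was -0.72 (SE 0.13, adjusted p = 0.00665) with anti-CD40 and Pam2CSK4, -0.58 (SE 0.13, adjusted p = 0.0302) with TLR2.CD86 and -0.44 (SE 0.13, adjusted p = 0.0498) with anti-CD40. The differences of -0.32 with Pam2CSK4 and -0.36 with anti-CD86 did not pass (adjusted p = 0.288 and 0.143). Neighbours in the order of means from anti-CD86 through anti-CD40 to TLR2.CD86 were not compared by a test, and the arrays of anti-CD86 and anti-CD40 overlapped. The call for TLR2.CD86 was lost when any of the 4 arrays compared was left out (adjusted p = 0.0610 to 0.170), and also without any array of anti-CD86 or of anti-CD40 with Pam2CSK4 (0.0528 to 0.0618). The call for anti-CD40 was lost without either unstimulated array or anti-CD40 replicate 2 (adjusted p = 0.202 to 0.215), without any array of the 4 conditions outside the comparison (0.0580 to 0.0862) and with the authors' own table of values. That for anti-CD40 with Pam2CSK4 was lost without either unstimulated array or its own replicate 1 (adjusted p = 0.0550 to 0.0570). Over all alternatives the adjusted p ran from 0.00233 to 0.551 for TLR2.CD86, from 0.00569 to 0.215 for anti-CD40 and from 0.000199 to 0.669 for anti-CD40 with Pam2CSK4.

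The same 60 bases stood in 3 spots of each array, 1 under Hdac1 and 2 under LOC100048437, which repeated the measurement on the same RNA. The 3 spots differed by at most 0.14 on the log2 scale on any array, with a median of 0.0875. The means of both LOC100048437 probes were also highest in unstimulated cells (6.57 and 6.68) and lowest with anti-CD40 and Pam2CSK4 (5.88 and 5.98). Signal from Hdac1 and from a near-identical transcript cannot be told apart at this probe.

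Hdac2, which pairs with HDAC1 in the same complexes, followed another order, with its lowest levels after Pam2CSK4 and TLR2.CD86 and levels near those of unstimulated cells after anti-CD40. Its log2 signal was -2.21 and -2.36 in unstimulated cells, -3.01 and -3.25 with Pam2CSK4, -2.66 and -2.94 with anti-CD86, -2.91 and -3.27 with TLR2.CD86, -2.11 and -2.42 with anti-CD40, and -2.66 and -2.60 with anti-CD40 and Pam2CSK4. The Hdac2 probe was dim, with a mean of -2.70 over the 12 arrays, at the 19.6th percentile of the probes tested. The arrays of Pam2CSK4 and TLR2.CD86 overlapped, and both lay below the unstimulated arrays. The log2 difference was -0.80 (SE 0.18, adjusted p = 0.0317) with TLR2.CD86, or 1.74-fold lower, and -0.85 (SE 0.18) with Pam2CSK4. The latter did not pass (adjusted p = 0.123, unadjusted p = 0.00141), and TLR2.CD86 differed from Pam2CSK4 by 0.04 (SE 0.18). With anti-CD86 and with anti-CD40 and Pam2CSK4 the differences were -0.52 and -0.34 (adjusted p = 0.141 and 0.217). With anti-CD40 the difference was 0.02 (adjusted p = 0.953), and its sign turned with median scaling (-0.55) and quantile normalization (-0.40). The call for TLR2.CD86 was lost without TLR2.CD86 replicate 2 (-0.63, adjusted p = 0.156) or without unstimulated replicate 1 or 2 (adjusted p = 0.184 and 0.149), and without either array of anti-CD40 with Pam2CSK4 (adjusted p = 0.0632). It was also lost with quantile normalization (-1.01, adjusted p = 0.133) and with normexp background correction (-0.41, adjusted p = 0.0912). Over its alternatives the adjusted p ran from 0.00150 to 0.481.

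The other class I members showed no call. Hdac3, the catalytic subunit of the NCoR and SMRT complexes, had condition means that spanned 0.12 on the log2 scale, from 1.60 ± 0.33 with TLR2.CD86 to 1.72 ± 0.02 in unstimulated cells (SD, n = 2 arrays), and its one-way adjusted p was 0.990. Its arrays ran from 1.36 to 1.91, and the 4 lowest were the 4 arrays of slide 2. Hdac8, which works without the large complexes, had means that spanned 0.28 by its brighter probe and 0.26 by its dimmer probe (one-way adjusted p = 0.888 and 0.703). The arrays of Hdac8 overlapped between unstimulated cells and every stimulation by the dimmer probe, and by the brighter probe in all but anti-CD40 (-1.38 and -1.57 against -1.28 and -1.13).

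Among the other class IIa members, Hdac4 was below unstimulated cells on all 10 stimulated arrays, but no difference passed. Its log2 signal was 0.79 and 0.81 in unstimulated cells, 0.56 and 0.27 with Pam2CSK4, 0.68 and 0.64 with anti-CD86, 0.54 and 0.40 with TLR2.CD86, 0.61 and 0.18 with anti-CD40, and 0.70 and 0.55 with anti-CD40 and Pam2CSK4. The largest of its differences was -0.40 (SE 0.17, adjusted p = 0.131) with anti-CD40, which passed without anti-CD40 replicate 1 (-0.62, adjusted p = 0.0354). Hdac7, known for its role in lymphocyte development, gave 2 probes that agreed only in part, with a correlation of 0.43 over the 12 arrays. The brighter Hdac7 probe had means from 1.86 with anti-CD40 to 2.18 with anti-CD40 and Pam2CSK4 (one-way adjusted p = 0.762). The dimmer Hdac7 probe was lowest in unstimulated cells (-1.16 ± 0.07, SD, n = 2) and highest with TLR2.CD86 (-0.67 ± 0.18, SD, n = 2), a log2 difference of 0.49 (SE 0.22, adjusted p = 0.185).

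Hdac9 was measured by probes that ran apart, with a correlation of -0.19 over the 12 arrays. The brighter Hdac9 probe had means from -2.28 ± 0.29 with TLR2.CD86 to -1.81 ± 0.27 with anti-CD86 (SD, n = 2), and no difference passed (one-way adjusted p = 0.388). The dimmer Hdac9 probe read 0.00 on replicate 2 of Pam2CSK4, while the other 11 arrays lay between -3.12 and -2.41. Replicate 1 of Pam2CSK4 was the highest of those 11. The log2 difference of Pam2CSK4 from unstimulated cells at this probe was 1.84 (SE 0.62, adjusted p = 0.246), and it was 3.04 (adjusted p = 0.0104) when replicate 1 was left out and only the high array stood for the condition. On that array 20 probes stood more than 2 log2 units above every other array, within the 1 to 49 seen on single arrays. Elsewhere the dimmer Hdac9 probe lay between -2.76 and -2.53 on all arrays with anti-CD40, against -2.96 and -3.12 in unstimulated cells, with differences of 0.33 and 0.47 (SE 0.62, adjusted p = 0.748 and 0.672).

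**Figure D3:**
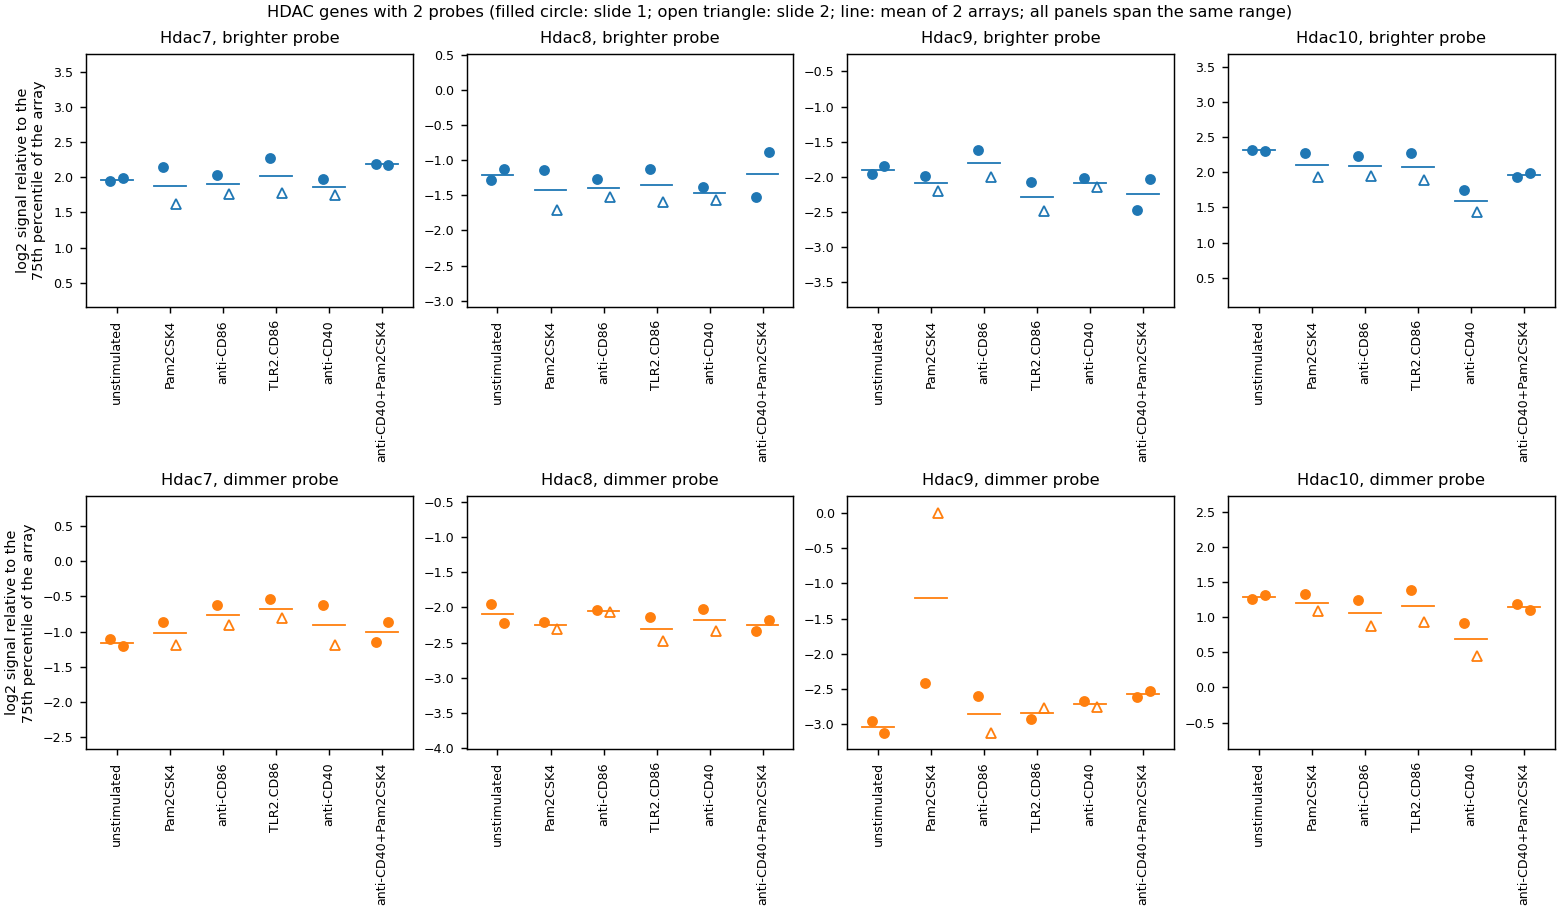
Log2 signal, with each array's 75th percentile at 0, for the brighter (top, blue) and dimmer (bottom, orange) probe of Hdac7, Hdac8, Hdac9 and Hdac10, with 1 point per array, filled circles for slide 1, open triangles for slide 2 and a line at the mean. Both probes of Hdac10 have their lowest mean with anti-CD40, and 1 array of Pam2CSK4 stands at 0.00 for the dimmer Hdac9 probe.

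Both class IIb genes had their lowest mean with anti-CD40 alone, as did Hdac4 and the brighter probes of Hdac7 and Hdac8. The brighter Hdac10 probe read 2.32 and 2.30 in unstimulated cells, 2.27 and 1.93 with Pam2CSK4, 2.24 and 1.95 with anti-CD86, 2.27 and 1.89 with TLR2.CD86, 1.75 and 1.44 with anti-CD40, and 1.94 and 1.99 with anti-CD40 and Pam2CSK4. Both anti-CD40 arrays were below all others, and the unstimulated arrays were above all others. The log2 difference with anti-CD40 was -0.72 (SE 0.19, adjusted p = 0.0386), or 1.65-fold lower, and with anti-CD40 and Pam2CSK4 it was -0.35 (SE 0.19, adjusted p = 0.240). The dimmer Hdac10 probe, whose correlation with the brighter one was 0.94, read 1.26 and 1.32 in unstimulated cells and 0.91 and 0.45 with anti-CD40, a difference of -0.60 (SE 0.22, adjusted p = 0.0919). The call at the brighter probe was lost without anti-CD40 replicate 2 (-0.56, adjusted p = 0.181) or without unstimulated replicate 1 or 2 (adjusted p = 0.169 and 0.167), as it was without either array of anti-CD86 (0.0506) or of anti-CD40 with Pam2CSK4 (0.0683). Its adjusted p over the alternatives ran from 0.000703 to 0.181. Hdac6, the tubulin deacetylase, read 0.21 and 0.20 in unstimulated cells, 0.31 and 0.21 with Pam2CSK4, 0.52 and 0.46 with anti-CD86, 0.54 and 0.23 with TLR2.CD86, 0.02 and -0.22 with anti-CD40, and 0.23 and 0.20 with anti-CD40 and Pam2CSK4. Thus both arrays with anti-CD86 alone lay above the unstimulated ones and both with anti-CD40 alone below. The differences were 0.29 (SE 0.14, adjusted p = 0.253) and -0.31 (SE 0.14, adjusted p = 0.157), and the one-way adjusted p of Hdac6 was 0.0993.

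The arrays of the 2 slides differed widely, and 57.2% of all probes differed between slides at an adjusted p under 0.05. In every condition split over both slides, slide 2 held replicate 2. The slide and any other difference between these replicates therefore cannot be told apart. Of the HDAC probes 9 of 14 did, 12 of 14 were lower on slide 2, and their median difference was -0.29 on the log2 scale beside -0.13 for all probes. In the fit with the slide as a block, 7 of 14 HDAC probes passed the one-way test (59.9% of all probes). Against unstimulated cells, 1 of 14 passed with Pam2CSK4 (10.8%), 4 of 14 with anti-CD86 (28.3%), 5 of 14 with TLR2.CD86 (34.9%), 5 of 14 with anti-CD40 (37.1%) and 4 of 14 with anti-CD40 and Pam2CSK4 (47.4%). With 14 probes, these counts lay near or below the shares of all probes and were not tested against them. Hdac2 was the probe that passed with Pam2CSK4 in that fit (-0.70, SE 0.07, adjusted p = 0.00614). Within slide 1 alone its difference was -0.73, from 1 array of Pam2CSK4.

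The block also brought calls in the other direction. Hdac6 was higher with anti-CD86 (0.38, SE 0.08, adjusted p = 0.0141) and with TLR2.CD86 (0.27, SE 0.08, adjusted p = 0.0340). The dimmer Hdac7 probe was higher with anti-CD86 (0.58), TLR2.CD86 (0.67) and anti-CD40 (0.43), with an SE of 0.12 and adjusted p of 0.0160, 0.00765 and 0.0317, whereas the brighter Hdac7 probe gave 0.13, 0.25 and 0.09 and passed in none (0) of them (adjusted p = 0.364, 0.0837 and 0.505). Both Hdac10 probes were lower with anti-CD40 (-0.55 and -0.41, adjusted p = 0.000703 and 0.00610), and the brighter one also with anti-CD40 and Pam2CSK4 (-0.35, adjusted p = 0.00193). Hdac1 passed with anti-CD86 as well (-0.28, adjusted p = 0.0190), Hdac2 with anti-CD86 (-0.37, adjusted p = 0.0115) and with anti-CD40 and Pam2CSK4 (-0.34, adjusted p = 0.00628), and Hdac5 with TLR2.CD86. Within slide 1 alone, anti-CD86 and TLR2.CD86 had 1 array each, so only their differences from unstimulated cells are given here. With anti-CD86 these were -0.32 for Hdac1, -0.37 for Hdac2, 0.32 for Hdac6 and 0.54 for the dimmer Hdac7 probe. With TLR2.CD86 the difference of Hdac6 was 0.34. The TLR2.CD86 array on slide 2 read 0.23 for Hdac6, against 0.21 and 0.20 in unstimulated cells. Anti-CD40 with Pam2CSK4 had both its arrays on slide 1, and within slide 1 limma called 6 of 14 HDAC probes (40.3% of all probes). Of these 2 were higher, namely the brighter Hdac7 probe (0.22, adjusted p = 0.0474) and the dimmer Hdac9 probe (0.47, adjusted p = 0.0276). For anti-CD40 with Pam2CSK4 these were the same arrays and differences as in the main fit, with another estimate of the spread. Since no unstimulated array lay on slide 2, the differences within slide 2 could not be set against unstimulated cells.

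The stimulations were also compared with each other, and Hdac5 was the HDAC called there. With anti-CD40 and Pam2CSK4 it was lower than with Pam2CSK4 alone by a log2 difference of -0.78 (SE 0.10, adjusted p = 0.00441) and lower than with TLR2.CD86 by -0.75 (SE 0.10, adjusted p = 0.00423). Each was 1 of 14 HDAC probes, beside 9.91% and 12.2% of all probes, and both calls held when any of the 4 arrays compared was left out (adjusted p = 0.0201 to 0.0447 and 0.0220 to 0.0433). These comparisons share their arrays of anti-CD40 with Pam2CSK4. For TLR2.CD86 against Pam2CSK4 (0.0633% of all probes), TLR2.CD86 against anti-CD86 (0.225%) and anti-CD40 with Pam2CSK4 against anti-CD40 (2.90%), limma called 0 of 14 HDAC probes each, with 1, 0 and 2 at an unadjusted p under 0.05 (10.3%, 8.81% and 19.7% of all probes). The difference of Hdac1 between TLR2.CD86 and Pam2CSK4 was -0.26 (SE 0.13, adjusted p = 0.552), with 6.13 and 6.01 below 6.42 and 6.23.

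The interaction is the log2 effect of the combined stimulation minus the sum of the single effects, and limma called 0 of 14 HDAC probes for CD86 with TLR-2 (0.0190% of all probes) and 0 of 14 for CD40 with TLR-2 (1.15%). At an unadjusted p under 0.05 there were 0 and 1 HDAC probes (4.29% and 19.3% of all probes). For Hdac2 the interaction of CD86 and TLR-2 was 0.56 (SE 0.25, adjusted p = 0.969), that is, the joint difference of -0.80 was smaller in size than the sum of -0.85 and -0.52. For Hdac1 and Hdac5 it was 0.11 (SE 0.18) and 0.07 (SE 0.15). The interaction of CD40 and TLR-2 was -0.06 (SE 0.15) for Hdac5, 0.03 (SE 0.18) for Hdac1 and 0.58 (SE 0.27, adjusted p = 0.274) for the brighter Hdac10 probe.

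Of 23 subunits of class I corepressor complexes tested, by the brightest probe of each gene, 3 passed the one-way test, beside 20.1% of all probes. Sap30, a subunit of the Sin3 complex, was lower with TLR2.CD86 (-0.94, adjusted p = 0.0132), anti-CD40 (-0.54, adjusted p = 0.0393) and anti-CD40 with Pam2CSK4 (-0.54, adjusted p = 0.0355). Suds3, another Sin3 subunit, was lower with anti-CD40 and Pam2CSK4 (-0.75, adjusted p = 0.00920), and Mta3, a NuRD subunit known from B cells, with anti-CD40 (-0.50, adjusted p = 0.0495). In that list 4 of 23 were lower with TLR2.CD86 (10.6% of all probes called), 2 lower and 1 higher with anti-CD40 (16.7%), 2 lower with anti-CD40 and Pam2CSK4 (18.2%), and 0 were called with Pam2CSK4 or anti-CD86 alone.

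Of 19 tested genes for class IIa partners, namely MEF2 factors, 14-3-3 proteins and the kinases that phosphorylate these HDACs, 5 passed the one-way test, beside 20.1% of all probes. The kinase gene Camk1d was higher with anti-CD86 (1.31, adjusted p = 0.0121) and with TLR2.CD86 (0.66, adjusted p = 0.0192). Sik1, a salt-inducible kinase, was higher with TLR2.CD86 (0.76, adjusted p = 0.0128) and with anti-CD40 and Pam2CSK4 (1.02, adjusted p = 0.00118). Camk2d was lower with anti-CD40 (-0.90, adjusted p = 0.00994) and with anti-CD40 and Pam2CSK4 (-0.69, adjusted p = 0.0175). Of the 19 genes, 2 were higher and 3 lower with TLR2.CD86 (10.6% of all probes called), 3 lower with anti-CD40 (16.7%), and 1 higher and 3 lower with anti-CD40 and Pam2CSK4 (18.2%).

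Of the 7 sirtuins, the NAD-dependent deacetylases, Sirt4 (a mitochondrial member) passed the one-way test, as 1 of 7 beside 20.1% of all probes. It was lower with TLR2.CD86 (-0.64, adjusted p = 0.0294), anti-CD40 (-1.14, adjusted p = 0.00309) and anti-CD40 with Pam2CSK4 (-1.43, adjusted p = 0.000638), and 2 of 7 sirtuins were lower in each of these, beside 10.6%, 16.7% and 18.2% of all probes called. Of 11 acetyltransferases tested, which add the groups that HDACs remove, Kat2b passed the one-way test as 1 of 11, beside the same 20.1%, and was lower with anti-CD40 (-0.88, adjusted p = 0.0304) and with anti-CD40 and Pam2CSK4 (-1.08, adjusted p = 0.0112). Sirt4 and Kat2b were thus lower in both conditions with anti-CD40, as Hdac5 was, and a link between these genes was not tested.

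**Figure D4:**
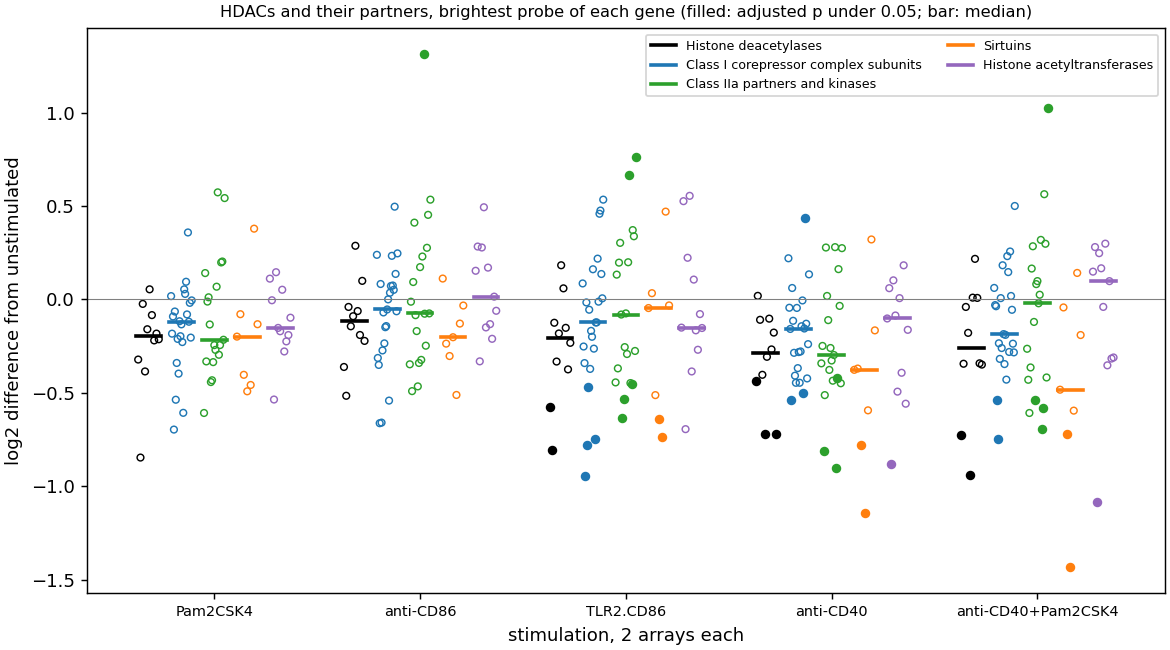
Log2 difference from unstimulated cells for the brightest probe of each HDAC gene (black) and of each tested corepressor subunit (blue), class IIa partner (green), sirtuin (orange) and acetyltransferase (purple) in the 5 stimulations, with 1 point per gene. Filled points passed an adjusted p of 0.05 and bars are medians, and no point is filled with Pam2CSK4 alone.

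The genes whose brightest probe was most like each of the 3 HDACs over the 12 arrays were found by Pearson's r among 12056 genes. These were well above background and unsaturated on all 12 arrays. Noncoding RNA probes and names such as those starting with LOC or a digit were left out. The LOC100048437 probes with the same bases as Hdac1 were therefore not compared. For Hdac5 they were Fam69a (r = 0.996), Trim59 (r = 0.989) and Casp9 (r = 0.983). For Hdac2 they were Foxn3 (r = 0.940), Igf2r (r = 0.934) and Mobk1b (r = 0.930). For Hdac1 they were Rnf144a (r = 0.988), Zfand1 (r = 0.983) and Gstm3 (r = 0.982). The points of these correlations share slides and conditions, and the values are a description of the 12 arrays.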

How the data were processed

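RNA of RB cells was labelled with Cy3 and hybridised by the authors to a custom 1-colour Agilent mouse array, and images were read with Feature Extraction 10.5.1.1. The deposited scanner files hold intensities per spot, and the background-corrected processed intensity was used. A second deposited table gave log2 values, which for at least 99.94% of matched probes were the log2 processed intensity less a fixed amount for that array (tolerance 0.001).

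Here the log2 processed intensity was scaled by subtracting each array's 75th percentile. Spots that were controls or outliers were not used, and repeated spots were averaged by probe. A probe had to be well above background on the 2 arrays of some condition, which 31669 were. Of these, 70 with a missing value were dropped, leaving 31599. limma 3.58.1 in R 4.3.3 was fitted with a coefficient per condition over all 12 arrays, with eBayes, Benjamini-Hochberg adjustment and a threshold of 0.05 without a minimum fold. The fit was tested on simulated data. Python 3.11.15 with pandas 2.3.3, numpy 2.4.6 and, for drawing, matplotlib 3.10.9 made the tables. Replicate arrays differed by a median of 0.0717 (unstimulated) to 0.305 (anti-CD40) on the log2 scale.

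The alternatives covered scaling (array median, quantile), normexp (offset 50), the authors' table, dim probes (no filter, or all arrays above background), blocks for slide or replicate number, slide 1 alone (for the counts chosen after seeing the data), the median of a gene's probes, the methods' one-way test without moderation, and leaving out each array. A condition left with 1 array was assumed to vary like the others. Every HDAC probe was described. For the 3 HDACs of lowest one-way p, the 3 most correlated genes were named, and from each list at most 3 genes past the one-way threshold, those with the largest range of condition means. Kdm1a and Kat2a had no probe under these names, and Prkd1 and Camk1 did not pass the filter. The members and lists were chosen with earlier results of these data known. Gene names are those of the array files, some of them old. Of the marker lists for red cells, plasma cells, exocrine pancreas, skeletal muscle and kidney, 3 of 4, 4 of 4, 1 of 6, 1 of 4 and 0 of 4 genes were well above background on all arrays. No array was labelled as the isotype control named in the methods, so that control could not be analysed here.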

Additional observations from a re-analysis of the deposited data

How the results depend on the processing

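Log2 differences were followed over the alternatives for the brightest probe of each HDAC gene against unstimulated cells, and for Hdac5 also between anti-CD40 with Pam2CSK4 and 2 other stimulations. None (0) of the 9 called differences among them changed sign under any alternative. Median scaling could not have turned those against unstimulated cells. Of the 118 values of these 9 under alternatives, 35 no longer passed. Of the 43 that were not called, 21 changed sign in at least 1 alternative. Among genes described above, Hdac2 with anti-CD40 turned to -0.548 with median normalization, -0.404 with quantile normalization and -0.0473 with normexp correction, and ran from -0.133 to 0.172 when 1 array was left out. Quantile normalization turned Hdac5 to 0.106 for anti-CD86 and 0.00309 for TLR2.CD86. Hdac6 with TLR2.CD86 turned to -0.104 with median normalization, and Hdac9 with Pam2CSK4 to 0.827 when the median of its probes was taken. The cause was not tested.

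Counts of HDAC probes called moved by over 1.5 times as follows, with the count of the report in parentheses. Median normalization gave 0 in the one-way test (3), for TLR2.CD86 (2), anti-CD40 (3) and both anti-CD40 and Pam2CSK4 (2) against unstimulated cells, and for the last of these against Pam2CSK4 (1) and TLR2.CD86 (1). Quantile normalization gave 1 for TLR2.CD86, and for anti-CD40 with Pam2CSK4 it gave 2 against Pam2CSK4, 1 against anti-CD40 (0) and 2 against TLR2.CD86. Normexp correction gave 1 for TLR2.CD86 and 2 for anti-CD40 with Pam2CSK4 against Pam2CSK4. Without a filter on dim probes there were 1 in the one-way test, 0 for TLR2.CD86 and 1 for anti-CD40. With the slide as a block there were 7 in the one-way test, 1 for Pam2CSK4 (0), 4 for anti-CD86 (0), 5 for TLR2.CD86, 5 for anti-CD40 and 4 for anti-CD40 with Pam2CSK4. That block also gave 1 for TLR2.CD86 against Pam2CSK4 (0), and for anti-CD40 with Pam2CSK4 5 against Pam2CSK4, 3 against anti-CD40 and 6 against TLR2.CD86. On slide 1 alone there were 6 for anti-CD40 with Pam2CSK4 against unstimulated cells. Counts on slide 1 alone that involve a condition with 1 array there are not given. Smaller moves were to 2 in the one-way test with quantile normalization, normexp correction and the methods' one-way test. For anti-CD40 they were to 2 with the authors' table and 4 with the replicate block.

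When 1 array was left out, the one-way count ran from 1 to 3. With 1 array of the conditions compared left out, Pam2CSK4 ran from 0 to 1, TLR2.CD86 from 0 to 1, anti-CD40 from 0 to 5 and anti-CD40 with Pam2CSK4 from 1 to 2, all against unstimulated cells. Against Pam2CSK4, anti-CD40 with Pam2CSK4 ran from 1 to 2 and TLR2.CD86 from 0 to 1, and both interactions ran from 0 to 1. The call that appeared for Pam2CSK4, for both comparisons with Pam2CSK4 and for the interactions was the dimmer Hdac9 probe, without Pam2CSK4 replicate 1. Without unstimulated replicate 1 or replicate 2, anti-CD40 and TLR2.CD86 had 0 calls. The 5 for anti-CD40 came without anti-CD40 replicate 1 and added Hdac4 and the dimmer Hdac10 probe.

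Whether the replicate numbers pair the samples cannot be told. In the 4 conditions split over both slides, the replicate number is also the slide number. Deviations of arrays with the same number correlated at 0.648 to 0.806 among the 4 conditions split over both slides and at -0.138 to 0.142 in pairs with unstimulated cells or with anti-CD40 and Pam2CSK4. With the replicate block there were 5 calls in the one-way test, 1 for Pam2CSK4, 1 for anti-CD86, and for anti-CD40 with Pam2CSK4 3 against Pam2CSK4 and 2 against TLR2.CD86. With 2 arrays a condition and no unstimulated array on slide 2, the spread of unstimulated cells is known from 1 slide alone.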

Other observations

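Hdac11, the class IV HDAC, is not among the 10 genes described. Its probe was well above background on 4 of 12 arrays, and its log2 signal ran from -4.67 to -3.59. The array also had probes for predicted transcripts that its annotation calls similar to a histone deacetylase, of which those of Gm5824, Gm4864 and LOC100046039 were well above background on all 12 arrays. The condition means of LOC100046039 ran from 3.98 with anti-CD40 to 4.37 in unstimulated cells. Both Gm5824 probes had their highest means in unstimulated cells (-0.01 and -0.03) and their lowest with anti-CD40 and Pam2CSK4 (-0.43 and -0.37), the same extremes as Hdac1. The probes of Gm2311 and LOC640408 were well above background on 0 of 12 arrays.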
